A study of Mus musculus with 72 samples.

Results

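The long-chain acyl-CoA synthetases Acsl1, Acsl3, Acsl4, Acsl5 and Acsl6 were followed in liver and in the suprachiasmatic nucleus (SCN), the paired hypothalamic nucleus that acts as the main clock of the brain. They were chosen by gene symbol, and all 5 were listed among the 22823 genes of the liver table and the 15759 genes of the SCN table. For Acsl5, the counts of its exon bins, which are parts of exons, were examined as well. The study compared C57BL/6 mice fed a diet free of methionine and choline (MCD) with mice fed an isocaloric control diet. Per the labels, the mice of every group were 8 to 12 weeks old and housed singly, ate their diet for 11 days, spent 10 days in a light-dark cycle and the last day in constant darkness, and were killed at 1 of 6 circadian times (CT), 4 h apart from CT0 to CT20. RNA came from the left lobe of the liver and from the SCN, which was cut from brain sections by laser microdissection. The 24 groups had 3 libraries apiece, 2 labelled male and 1 labelled female, which gave 18 libraries per diet and tissue.

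These enzymes join free long-chain fatty acids to coenzyme A, at the cost of ATP, and so open the way to oxidation, to triglyceride and phospholipid synthesis and to protein acylation. The members differ in location and in preferred fatty acid: Acsl1 is the major form of liver and fat, Acsl5 is abundant in intestine and liver and lies on mitochondria and the endoplasmic reticulum, Acsl3 sits on the endoplasmic reticulum and lipid droplets, Acsl4 prefers arachidonic acid, and Acsl6 is a brain form that handles docosahexaenoic acid. The MCD diet removes the precursors of phosphatidylcholine and is widely used to produce steatohepatitis in mice.

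The members lie on separate chromosomes. In GENCODE M21 (build GRCm38), Acsl1 spans chr8:46471037-46536051 on the plus strand, Acsl3 chr1:78657825-78707743 (plus), Acsl4 chrX:142317993-142390535 (minus), Acsl5 chr19:55251938-55297720 (plus) and Acsl6 chr11:54303798-54364756 (plus). The 34 exon bins of Acsl5 in the deposited files equal in number those of this gene model, and the bins were placed on it by that equality. Bins 1 and 2 then lie at chr19:55251938-55252076, the first exon of transcripts that start upstream, and bin 3 at chr19:55253369-55254166 is the first exon of Acsl5-201, which starts inside the gene. RefSeq promoters (GRCm38.p6) were found for all 5 members, and that of Acsl5 has its start site at 55253369, the first base of bin 3.

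The 250 bases before the RefSeq start are shown for Acsl5, because its bin 3 went against the rest of the gene on MCD, and, for comparison, for Acsl1 and Acsl3, the leading other members of liver and of SCN. For Acsl1 the upstream of its RefSeq starts is shown. Capitals mark matches to CCAAT or GGGCGG on either strand (ATTGG and CCGCCC on the other). In Acsl3, 1 match of each kind lie side by side. They lie at chr19:55253119-55253368, chr8:46470787-46471036 and chr1:78657575-78657824, all on the plus strand.
Acsl5: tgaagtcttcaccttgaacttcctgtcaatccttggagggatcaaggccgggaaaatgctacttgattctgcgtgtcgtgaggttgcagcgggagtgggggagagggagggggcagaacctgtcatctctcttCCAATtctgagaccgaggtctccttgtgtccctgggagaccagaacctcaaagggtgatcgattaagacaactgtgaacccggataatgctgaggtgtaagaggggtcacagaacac
Acsl1: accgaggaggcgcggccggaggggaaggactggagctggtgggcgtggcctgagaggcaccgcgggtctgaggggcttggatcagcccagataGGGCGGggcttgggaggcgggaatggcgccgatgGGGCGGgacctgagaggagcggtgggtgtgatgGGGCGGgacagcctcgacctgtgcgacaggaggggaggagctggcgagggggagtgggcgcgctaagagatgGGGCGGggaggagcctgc
Acsl3: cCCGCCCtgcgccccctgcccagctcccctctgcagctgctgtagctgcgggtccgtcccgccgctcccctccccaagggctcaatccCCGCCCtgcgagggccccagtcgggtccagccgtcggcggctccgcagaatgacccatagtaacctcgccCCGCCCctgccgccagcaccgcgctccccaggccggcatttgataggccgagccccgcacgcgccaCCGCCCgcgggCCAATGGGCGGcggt

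The stretch before Acsl5 bin 3 was 52.8% G and C, against 72% before the upstream start of Acsl1 and 75.6% for Acsl3. It held 1 CCAAT match, 117 bases before the start, and 0 GGGCGG matches, while the stretch before Acsl1 held 4 and that before Acsl3 held 5. Across 32851 RefSeq promoters, windows of this length held CCAAT in 33.8% and GGGCGG in 32.7%. The nuclear receptor half-site AGGTCA (14% of promoters), the direct repeat of that half-site with 1 spacer base (0.0335%), the E-box CACGTG (6.02%), TGATGNAA (3.45%), TTATGNAA (3.07%) and TATAAA (12.4%) were not in these 3 windows. The half-site occurred within the family only before a start of Acsl6, with 2 matches. Acsl1 has a further RefSeq start inside the gene, in its bin 9, whose window is not printed. That window resembled the one of Acsl5 more closely, with 48.4% G and C, 2 CCAAT matches and 0 GGGCGG matches. A match describes letters, not a bound site.

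A liver library held 52.6 to 86.7 M counts in all and an SCN library 23.3 to 79.8 M. Levels are given as CPM, the counts of a gene per 1 M counts of its library, with library sizes scaled by TMM, a normalization that centres libraries on their common genes. In both gene tables, 2 columns of male controls at CT8 carry the same name, and these libraries are called control CT08 a and b. Liver control CT08 a stood apart. On a scale over diet genes in which -1 is the control mean and 1 the MCD mean, it scored 1.11. The remaining 17 controls lay between -1.46 and -0.58, and MCD libraries between 0.28 and 1.77. It was kept under its label, and values without it are added where it changed one. Liver libraries also fell into 2 kinds by mt-Nd6, a mitochondrial transcript, with 8 control and 13 MCD libraries in the low kind and 10 and 5 in the high kind. All 8 hepatocyte markers were measured in liver, summing to 80158 to 121504 CPM on control and 58348 to 124083 CPM on MCD, and all 7 SCN neuron markers in SCN. Of the 8 hepatocyte markers, 2 were listed for SCN, and these summed to at most 27.3 CPM there.

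Liver and SCN held different members at the top. Levels of different genes were compared per kilobase (kb) of the longest protein-coding transcript of each, a length chosen after the levels were seen. In control liver Acsl1 (253 CPM per kb) and Acsl5 (132) led, followed by Acsl4 (13.7) and Acsl3 (10.4), with Acsl6 last at 0.0227. In control SCN the order was Acsl3 (77.8 CPM per kb), Acsl6 (32.9), Acsl1 (7.53), Acsl4 (7.26) and Acsl5 (4.33). Acsl4 and Acsl3 in liver, and Acsl1 and Acsl4 in SCN, differed by less than the larger of their SDs over 18 libraries. Each other pair of neighbours differed by more than the SD of either. The place of Acsl1 depends on the length used, since its exons of all transcripts together span 10.483 kb, against 3.897 kb in Acsl1-201. Per kb of all exons, Acsl1 and Acsl5 stood at 94.2 ± 31.1 and 115 ± 27.4 CPM per kb in control liver, within their SDs, and Acsl1 was last in SCN at 2.80.

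**Figure D1:**
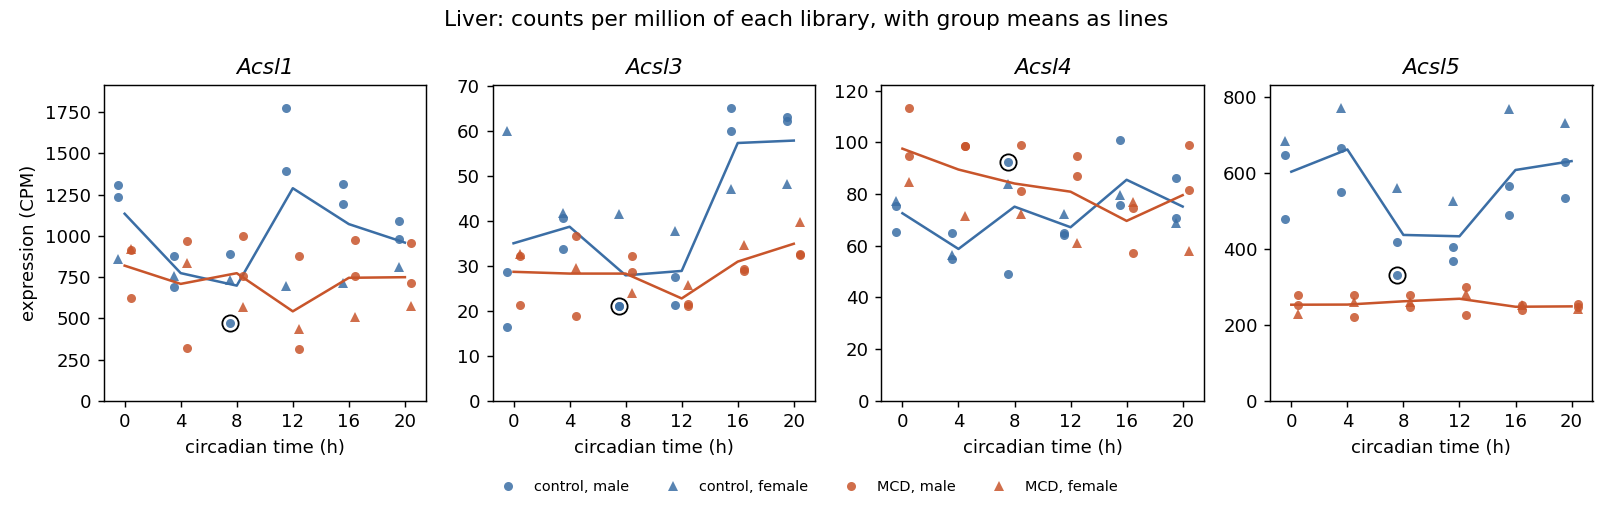
CPM (vertical axes) of 4 members in each of the 36 liver libraries against circadian time in hours, with circles for males, triangles for females, lines through group means and a black ring around control CT08 a. The MCD points of Acsl5 lie between 222 and 300 CPM at every time, under all control points, while the diets overlap for Acsl1, Acsl3 and Acsl4.

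The first comparison asked whether the MCD diet changed the members in liver on average over the 6 times. Acsl5, Acsl3 and Acsl1 fell and Acsl4 rose. Under the quasi-likelihood test of edgeR, with p adjusted by Benjamini-Hochberg over 20249 genes, 25.3% of genes were higher and 21.2% lower, so a call as such did not set a member apart. The median gene moved by 0.02 log2. With library totals alone in place of TMM it moved by 0.27 log2, and 10633 genes were called higher and 1540 lower, against 5130 and 4296. The 4 members kept their direction under that scaling. All values are per unit of total liver RNA, in which fewer cells of a type and less RNA per cell cannot be told apart.

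Acsl5, one of the leading synthetases of control liver, had the largest change of the 4 members with more than a few liver counts. It ranged from 331 to 769 CPM on control (median 555, mean 562 ± 133 SD, n = 18) and from 222 to 300 CPM on MCD (median 252, mean 255 ± 21.2, n = 18). The diets did not overlap: every control library lay above every MCD library, and the lowest control was control CT08 a. The fitted difference was -1.10 ± 0.066 log2 (SE, 95% interval -1.24 to -0.97, adjusted p = 2.32e-12). The MCD mean was 45.5% of the control mean. The MCD libraries spanned 78.1 CPM and the controls 438 CPM.

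The drop in Acsl5 was present at each time tested by itself. At CT0 the controls were at 647, 478 and 683 CPM and the MCD libraries at 252, 279 and 228 CPM. At CT4 they were at 549, 665 and 769 CPM against 222, 279 and 259 CPM. At CT8, controls a, b and 3 were at 331, 417 and 561 CPM, against 277, 248 and 260 CPM on MCD. At these 3 times, as at the later ones, the lowest control exceeded the highest MCD library. At CT12 the values were 404, 368 and 526 CPM against 300, 226 and 280 CPM. At CT16 they were 565, 488 and 768 CPM against 251, 238 and 253 CPM. At CT20 they were 532, 627 and 731 CPM against 256, 248 and 242 CPM. Controls were lowest at CT8 and CT12, while the MCD libraries stood between 222 and 300 CPM throughout. In log2 the differences were -1.24, -1.38, -0.72, -0.68, -1.28 and -1.33 from CT0 to CT20, with adjusted p values of 3.29e-05, 9.83e-06, 0.0218, 0.00636, 2.87e-05 and 1.45e-05. At these times 12.6%, 18.2%, 1.3%, 15.2%, 12.5% and 11.3% of all genes were called. The CT8 call was lost in 4 of 6 fits that left out 1 library of that time, namely without control b or 3 or MCD 2 or 3 (adjusted p 0.0736 to 0.136), where the effect ran from -0.86 to -0.57 over the 6 fits.

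Acsl1, the major hepatic synthetase, ranged from 470 to 1773 CPM on control (median 883, mean 987 ± 326, n = 18) and from 313 to 999 CPM on MCD (median 754, mean 723 ± 228, n = 18). The ranges overlapped, and 7 controls lay above all MCD libraries, while 3 MCD libraries lay below all controls. The lowest control was control CT08 a; without it the controls began at 691 CPM (mean 1018 ± 309, n = 17), and 7 MCD libraries lay below them. Its diet effect was -0.42 ± 0.15 log2 (adjusted p = 0.0200). At single times it was called at CT12 only, by -1.21 (adjusted p = 0.0243). There the controls were at 1773, 1396 and 697 CPM and the MCD libraries at 876, 313 and 438 CPM, so that the female control, at 697 CPM, lay inside the MCD range. The call over all times was lost with library totals (-0.17, adjusted p = 0.242) and without replicate 1, 2 or 3 (adjusted p 0.0717, 0.0981 and 0.0522).

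Acsl3, a synthetase of the endoplasmic reticulum and lipid droplets, ranged from 16.4 to 65.0 CPM on control (median 41.1, mean 40.9 ± 16.3, n = 18) and from 18.8 to 39.7 CPM on MCD (median 29.4, mean 29.0 ± 5.85, n = 18). Of the controls, 10 lay above and 1 below the whole MCD range. The diet effect was -0.43 ± 0.12 log2 (adjusted p = 0.00410). At single times it was called at CT16 only, by -0.92 (adjusted p = 0.0407), where controls were at 59.9, 65.0 and 47.0 CPM and MCD libraries at 29.3, 28.9 and 34.6 CPM, with no overlap. At CT20 controls were at 62.3, 63.1 and 48.1 CPM and MCD libraries at 32.4, 32.7 and 39.7 CPM, also without overlap, but the difference of -0.76 was not called (adjusted p = 0.0949). With library totals the effect over all times was -0.18 (adjusted p = 0.179). It was -0.20 within the low kind of library (adjusted p = 0.126) and -0.35 within the high kind (0.0819).

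Acsl4, which prefers arachidonic acid, was the member that rose. It ranged from 49.2 to 101 CPM on control (median 71.5, mean 72.3 ± 13.2, n = 18) and from 57.1 to 113 CPM on MCD (median 83.2, mean 83.5 ± 16.0, n = 18), and most libraries of the diets overlapped. The mean went from 71.99 to 89.9 CPM in males (n = 12 each) and from 73.1 to 70.7 CPM in females (n = 6 each), so the higher MCD mean was that of the males, and the sex-by-diet test did not call the difference (adjusted p = 0.333). The effect was 0.20 ± 0.081 log2 (adjusted p = 0.0443), close to the threshold, and the call was lost in 23 of 36 fits that left out 1 library. That call was also lost with a replicate block in place of sex, in a fit without control CT08 a and b. At single times Acsl4 was called at CT4 only, by 0.60 (adjusted p = 0.0359), where controls were at 54.7, 64.9 and 56.6 CPM and MCD libraries at 98.4, 98.6 and 71.3 CPM, without overlap. The call at CT4, like that of Acsl3 at CT16, was lost in 5 of 7 fits without 1 library, and that of Acsl1 at CT12 in 4 of 7.

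Acsl6, the brain form, was at the edge of detection in liver. It had 129 counts over 7 of the 18 control libraries, from 7 to 38 counts each, and 3 counts in 1 of the 18 MCD libraries. All of them fell in libraries labelled male, and the 12 female libraries held 0. It passed the filter on low counts through those control libraries, and no diet test is given, since its fit to so many libraries at 0 has no usable error. Its overlap with the antisense gene Gm12224, whose exons touch 3 of its 50 bins, leaves the strand of so few counts unknown, since the use of strand in counting is not given in the sources used here.

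**Figure D2:**
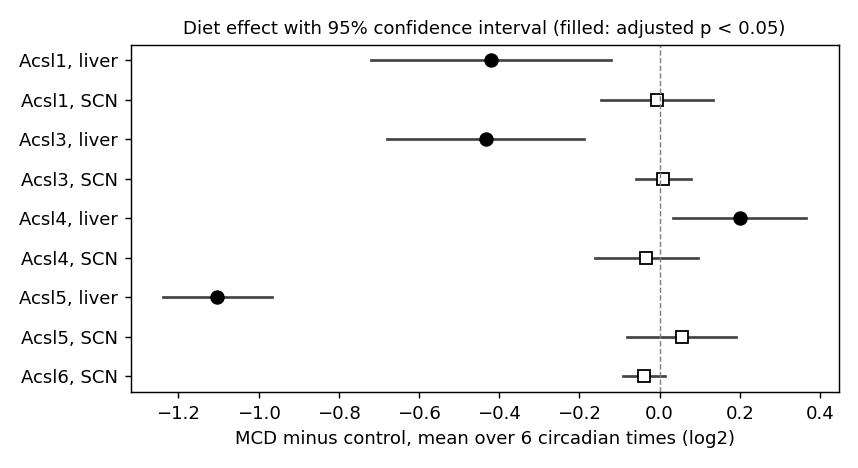
Difference between MCD and control in log2 (horizontal axis), mean over 6 times, with its 95% confidence interval, for each member in liver (circles) and SCN (squares); filled symbols have an adjusted p under 0.05. Acsl5 in liver lies at -1.10, apart from the other intervals, and all 5 SCN intervals include 0; Acsl6 in liver is left out for its low counts.

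None of the members was called for diet in SCN, where the same test called 10 of 15759 genes (0.0635%). Acsl3, the leading form there, ranged from 249 to 398 CPM on control (median 302) and from 255 to 376 CPM on MCD (median 301). Acsl6 ranged from 172 to 210 CPM on control (median 191) and from 171 to 209 CPM on MCD (median 185). The diets overlapped for all 5 members. The 95% intervals of the diet effect were -0.06 to 0.08 log2 for Acsl3, -0.09 to 0.01 for Acsl6, -0.16 to 0.10 for Acsl4, -0.15 to 0.13 for Acsl1 and -0.08 to 0.19 for Acsl5. The Acsl5 interval in SCN therefore does not reach the lower value measured in liver, and its control mean of 18.4 ± 2.34 CPM and MCD mean of 19.1 ± 2.63 CPM (n = 18 each) differed by less than 1 SD. Adjusted p was 1 for each.

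**Figure D3:**
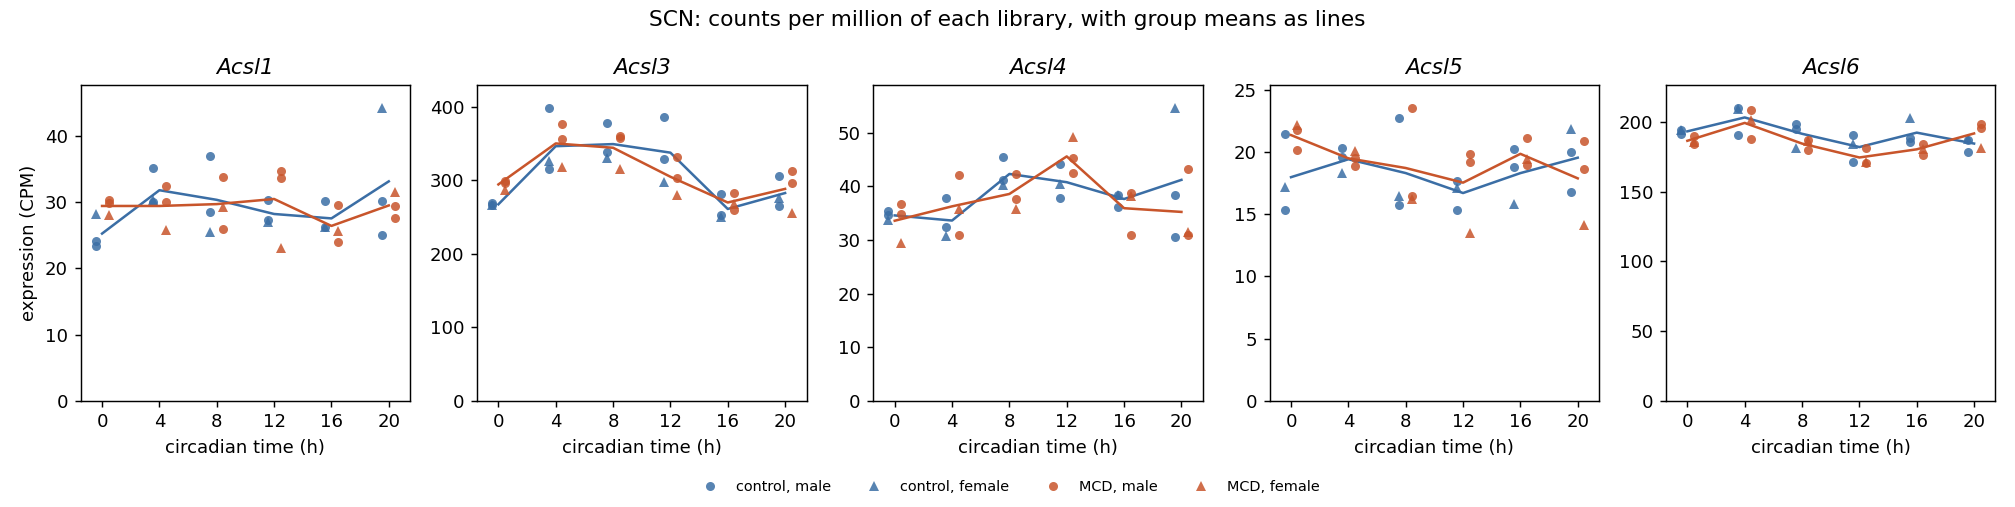
CPM (vertical axes, from 0) of the 5 members in each of the 36 SCN libraries against circadian time in hours, with circles for males, triangles for females and lines through group means. The diets overlap in every panel, and Acsl3 is higher at CT4 and CT8 than at CT16 on both diets.

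The difference between the tissues was tested on the 14491 genes tested in both, with all 72 libraries in 1 model that treats liver and SCN as independent. On control, 90.4% of these genes differed between SCN and liver. Acsl5 was lower in SCN by -5.76 ± 0.084 log2 and Acsl1 by -6.11 ± 0.15, Acsl4 was lower by -1.94 ± 0.085 and Acsl3 higher by 2.14 ± 0.10, with adjusted p of 2.17e-27 or less for Acsl1, Acsl4 and Acsl5 and 1.65e-25 for Acsl3. Scaling by library totals moved the median gene from 0.04 to 0.75 log2, with Acsl5 at -5.05, Acsl1 at -5.40, Acsl4 at -1.24 and Acsl3 at 2.85. Acsl6 averaged 191 ± 9.85 CPM in control SCN and 0.132 ± 0.201 CPM in control liver (n = 18 each), and no fold is given against so few liver counts.

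The diet effect itself differed between the tissues for 34.7% of genes. For Acsl5 it was higher in SCN than in liver by 1.16 ± 0.091 log2 (adjusted p = 4.53e-14), for Acsl3 by 0.45 ± 0.13 (0.00442) and for Acsl1 by 0.42 ± 0.16 (0.0415). For Acsl4 it was lower by -0.23 ± 0.10 (adjusted p = 0.0820), a difference that passed the threshold without liver control CT08 a (-0.26, adjusted p = 0.0476) and with library totals (-0.39, adjusted p = 0.00454). With library totals the value for Acsl3 fell to 0.29 (adjusted p = 0.0472). The value for Acsl1 did not pass the threshold with library totals (0.27, adjusted p = 0.161) or without replicate 1 or 2 (adjusted p = 0.212 and 0.230).

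Members were next examined for a 24 h component over the 6 times of a diet. On control, 17.8% of liver genes were called. Acsl5 was among them, with a peak-to-trough range of 0.59 log2 and a fitted peak at CT22.4 (adjusted p = 0.00662). Its control values given above were lowest at CT8 and CT12. Acsl3 had a range of 1.04 log2 and a fitted peak at CT19.3 (adjusted p = 0.0103), with CT16 and CT20 values from 47.0 to 65.0 CPM against 21.3, 27.6 and 37.7 CPM at CT12 and 21.0, 21.1 and 41.6 CPM at CT8. At CT0 its controls spread from 16.4 to 60.1 CPM, nearly the whole range of the diet. Acsl1 and Acsl4 were not called (adjusted p = 0.431 and 0.323). Both calls were lost without replicate 1 (Acsl5 0.160, Acsl3 0.264) and without replicate 2 (0.0762 and 0.0508). Control CT08 a and b, which carry no number, stayed in these fits. Both calls were also lost with a replicate block in place of sex, in a fit without control CT08 a and b.

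On MCD, where 28.2% of liver genes had a called 24 h component, none of the members did. The range was 0.09 log2 for Acsl5 (adjusted p = 0.871), 0.36 for Acsl3 (0.507), 0.41 for Acsl1 (0.558) and 0.37 for Acsl4 (0.204). A difference in rhythm between the diets was called for 4.87% of genes and for none of the members. Acsl5 came closest (adjusted p = 0.0678), so its flat MCD profile was not shown to differ from its control rhythm. That test passed the threshold with library totals (adjusted p = 0.0453) and in 4 of 36 fits without 1 library (control CT00 2, control CT08 3, MCD CT00 2 or MCD CT12 2; 0.0357 to 0.0497).

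In SCN a 24 h component was called for 15.1% of genes on control and 16.1% on MCD, and among the members for Acsl3 on both diets. On control Acsl3 was at 398, 315 and 326 CPM at CT4 and 378, 339 and 330 CPM at CT8, against 281, 252 and 249 CPM at CT16. The control libraries of CT4 and CT8 all lay above those of CT16. The range was 0.45 log2 with a fitted peak at CT7.6 (adjusted p = 5.43e-05). On MCD Acsl3 was at 355, 376 and 318 CPM at CT4 and 260, 282 and 267 CPM at CT16, with a range of 0.36 log2 and a peak at CT5.9 (adjusted p = 0.000953). The latter call was lost without replicate 2 (adjusted p = 0.0756). A difference between the diets was called for 0.0127% of SCN genes and had an adjusted p of 1 for all 5 members.

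The fitted peaks of Acsl3 on control thus lay at CT19.3 in liver and CT7.6 in SCN. A test of the difference in the 24 h component between the tissues, added after these peaks were seen, called 16.9% of genes. Among the members it called Acsl3, with a range of the difference of 1.49 log2 (adjusted p = 0.000107). Without replicate 1 the adjusted p was 0.0643. Acsl5 (0.129), Acsl1 (0.432) and Acsl4 (0.608) were not called.

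The labels put 1 female in each group, which allowed a comparison of the sexes. The female was replicate 3 in every group, so sex and replicate number cannot be told apart. In liver, 9.44% of genes differed between females and males and none of the members was called, with Acsl5 nearest at 0.21 ± 0.069 log2 higher in females (adjusted p = 0.0549). The diet effect on Acsl5 was larger in females: it was -1.40 log2 against -0.96 in males, a difference of -0.44 ± 0.11 (adjusted p = 0.0372), where 1.77% of genes were called. Control females ran from 526 to 769 CPM (mean 673 ± 106, n = 6) and control males from 331 to 665 CPM (mean 506 ± 111, n = 12), while MCD means were 254 ± 17.7 and 256 ± 23.4 CPM. The sexes overlapped on both diets. The call was lost in 21 of 36 fits without 1 library (adjusted p 0.0153 to 0.102). Acsl4 (0.333), Acsl3 (0.713) and Acsl1 (0.889) were not called. In SCN, 9.89% of genes differed by sex, and Acsl3 was lower in females by -0.13 ± 0.036 log2 (adjusted p = 0.0217), a call lost without MCD CT04 3 (0.0543) or MCD CT20 3 (0.0504).

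**Figure D4:**
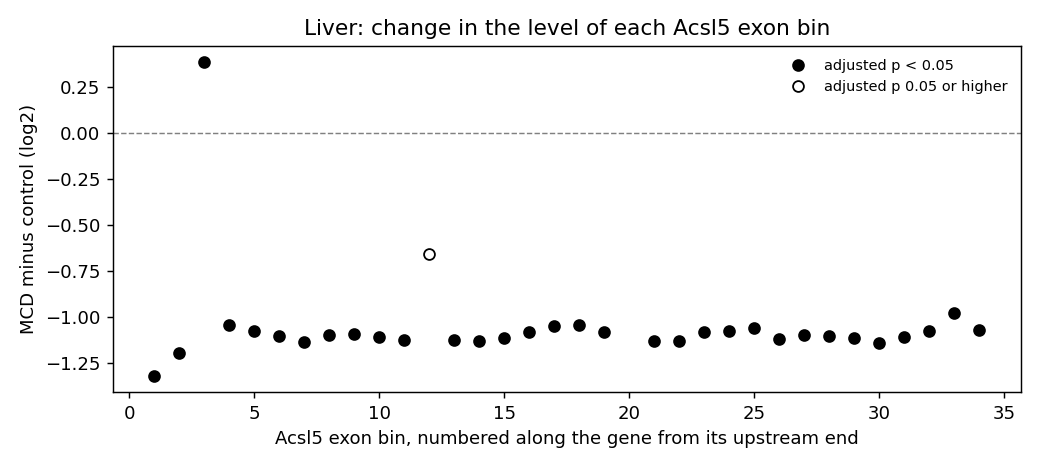
Difference between MCD and control in the level of each Acsl5 exon bin in liver (vertical axis, log2) against bin number along the gene, over 34 libraries; filled points have an adjusted p under 0.05. Bin 3 lies at 0.39 and all other tested bins between -1.33 and -0.66.

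The exon bins of Acsl5 were examined to see whether the parts of the gene fell alike. Exon usage was tested in the 34 complete liver files, with time and sex as covariates (edgeR diffSpliceDGE). At the gene level 3.89% of 13242 genes were called, and Acsl5 was among them with an adjusted Simes p of 7.54e-39. Of its 33 bins tested, 1 was called: bin 3, the first exon of Acsl5-201, rose by 1.48 ± 0.091 log2 relative to the gene (adjusted p = 2.07e-39), where 0.194% of all bins were called higher. Taken by itself rather than relative to the gene, the level of bin 3 was higher on MCD by 0.39 log2 (adjusted p = 0.00251), where 14.2% of bins were called higher and 14.3% lower. Of the other 32 bins, 31 were called lower and 0 higher. Bins 1 and 2, the upstream first exon, fell by 1.33 and 1.20 log2, and bin 4 fell by 1.05. Bin 3 does not stand for Acsl5-201 as a whole. Bins 15 to 19 and 24 to 29, which the gene model gives to that transcript alone, fell by 1.05 to 1.12 log2. The upstream transcripts in the model, Acsl5-202 and Acsl5-205, are 529 and 520 bases long and end by bin 14. The level of bin 3 was not called without replicate 3, the female libraries (0.28, adjusted p = 0.158), while its rise relative to the gene was called in each of the 7 alternative fits.

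Bin 3 held a small part of the Acsl5 counts. Its share of the counts over all Acsl5 bins ranged from 0.176% to 0.953% in the 16 complete control files (median 0.304%, mean 0.350% ± 0.171) and from 0.619% to 1.33% in 18 MCD files (median 0.893%, mean 0.951% ± 0.223). The overlap rested on 1 file: control CT08 1 held 0.953%, and without it the highest control was 0.439%, under the lowest MCD file. The exon files number these libraries, and control CT08 1 lay at the MCD level there as column a did in the gene table. The mean share was 2.72-fold higher on MCD (two-sided permutation p = 1e-05, the smallest that 100000 resamples give, 3e-05 adjusted over 3 bins), and 3.07-fold higher without that file. In females it was 0.259% ± 0.0445 on control and 1.04% ± 0.197 on MCD (n = 6 each, exact permutation p = 0.00216, the smallest possible). In males it was 0.404% ± 0.198 (n = 10) and 0.905% ± 0.229 (n = 12, permutation p = 0.00012). The share of bin 1 went the other way, from 0.433% ± 0.0497 to 0.371% ± 0.0453 (permutation p = 0.00089, adjusted 0.00133). That of bin 2 was 2.37% ± 0.226 and 2.19% ± 0.328 (permutation p = 0.0790).

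**Figure D5:**
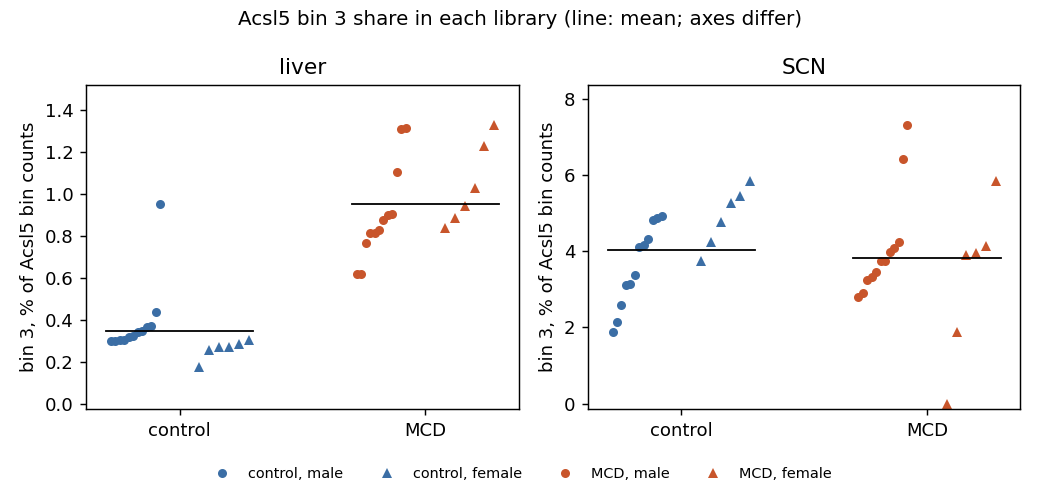
Share of Acsl5 bin counts that fell in bin 3 (vertical axes, percent, on different scales) in each of the 36 liver and 36 SCN libraries, with circles for males, triangles for females and a line at the mean. In liver the MCD libraries lie at 0.619% or above and all controls but control CT08 1 at 0.439% or below, while in SCN the diets overlap.

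The counts of the first-exon bins also differed between the tissues. Bin 3 lies in an intron of the upstream transcripts. Reads of unspliced RNA there were not told apart from those of a first exon, so the use of each start was not tested. In control liver, bins 1 and 2 together held 23891 counts and bin 3 held 2818, of 836417 counts over Acsl5. Bin 3 made up 10.9% ± 4.51 of the counts of the 3 first-exon bins on control and 27.2% ± 6.56 on MCD (n = 18 each, the truncated files included, since they hold these bins). In SCN, bins 1 and 2 held 0 counts in all 36 libraries, against 774 counts in bin 3 on control and 802 on MCD. A count of 0 allows a share of up to 0.0150% of the 20033 control counts and 0.0142% of the 21078 MCD counts, for counting error only. In liver those bins held 2.82% ± 0.253 of the Acsl5 counts on control. These start bins were set side by side after their counts were seen. The promoter printed above lies before the first-exon bin counted in SCN, which is the one with fewer counts in liver. Bin 3 is longer than bins 1 and 2, so their counts do not give a ratio of transcripts. In SCN bin 3 held 4.04% ± 1.14 of Acsl5 counts on control and 3.83% ± 1.62 on MCD (n = 18 each, permutation p = 0.660), and 1 MCD female held 0 of 489 counts, which allows up to 0.613%.

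Part of Acsl5 shares its position with another gene. Exons of Zdhhc6, a palmitoyltransferase gene on the minus strand, touch 6 of the 34 Acsl5 bins and cover 404 bases of them. Zdhhc6 was at 58.9 ± 4.61 CPM on control and 61.5 ± 4.69 CPM on MCD in liver (n = 18 each), with a diet effect of 0.06 ± 0.029 log2 (adjusted p = 0.0819). In SCN it was at 26.9 ± 3.30 and 25.7 ± 4.11 CPM, above Acsl5 there. The libraries were stranded per the labels' protocols, but whether counting used the strand is not given in the sources used here, and its part in the Acsl5 counts of SCN was not tested. In liver, 27 of the tested Acsl5 bins are free of those exons. Of these, 25 were called lower in level on MCD, bin 3 was called higher by 0.39 log2, and 1 was not called. The 6 bins under Zdhhc6 exons were all called lower, with changes from -1.13 to -1.07 log2. Acsl3 shares bases with Utp14b, a gene for ribosomal RNA processing on the same strand, in 3 of the 26 bins of the gene model. Utp14b went from 16.4 ± 6.79 to 8.08 ± 2.39 CPM in liver (-0.96 ± 0.15 log2, adjusted p = 8.75e-06), and its part in the Acsl3 counts was not tested. Of the 20 Acsl3 bins tested in liver, 19 were called lower in level on MCD, with changes from -0.85 to -0.40 log2 over the 20. Of 46 Acsl1 bins tested, 9 were called lower and 0 higher, and of 21 Acsl4 bins 1 was called higher and 0 lower, against 14.2% of all bins higher and 14.3% lower.

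Other members showed no called change of exon usage. In liver the adjusted p was 1 at the gene level for Acsl1, Acsl3 and Acsl4, and Acsl6 had too few counts to be tested. In SCN 0.0337% of 14837 genes were called, and all 5 members had an adjusted p of 1. Acsl1, which also has a start inside the gene in RefSeq, was counted mostly at its upstream start in liver on either diet. Its bins 1 to 5 held 27044 counts on control and 28056 on MCD, and bins 9 to 11, at the inner start, held 771 and 1253. In SCN the upstream bins held 519 and 770 counts and the inner ones 0 and 8, so the upstream start of Acsl1 held most start counts in both tissues.

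The genes around these enzymes were described by lists chosen with earlier results of these data known, and from each the 2 genes with the largest called effects are named. Their counts are read against all liver genes, of which 25.3% were higher and 21.2% lower on MCD. Of 15 genes of fatty acid synthesis, 12 fell and 1 rose on MCD in liver (median -1.44 log2, against 0.02 for all genes). Scd1, the main hepatic stearoyl-CoA desaturase, went from 16132 to 792 CPM (-4.22 ± 0.27), and Scd2 changed by -2.56. Of 10 other acyl-CoA synthetases tested, 7 fell and 1 rose (median -0.49), with Acss2, which activates acetate, going from 473 to 80.3 CPM (-2.43) and Acsm2, a medium-chain synthetase, by -1.43. Of 10 genes of fatty acid uptake and very-long-chain activation, 4 fell and 3 rose. The fatty acid binding protein gene Fabp5 went from 83.3 to 6.50 CPM (-3.70) and the uptake receptor gene Cd36 from 53.2 to 139 CPM (1.47).

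Genes that use acyl-CoA were called in both directions in each list. The counts for glycerolipid acyltransferases, oxidation and thioesterases lay near the background of 25.3% higher and 21.2% lower. Of 14 glycerolipid acyltransferase genes, 4 rose and 2 fell (median -0.07), with Gpat3 at 3.69 and 23.9 CPM (2.83) and Gpam, the mitochondrial glycerol-phosphate acyltransferase, at 597 and 292 CPM (-0.92). Of 18 genes of acyl-CoA oxidation, 6 rose and 4 fell (median 0.05), led by Cpt1b (1.64) and the peroxisomal transporter gene Abcd2 (1.11). Of 12 thioesterase genes, 4 rose and 3 fell (median 0.23), led by Acot2 (1.41) and Acot3, whose fitted 1.24 (adjusted p = 0.0328) stood beside means of 55.7 and 55.0 CPM. Of 5 acyl-CoA binding protein genes, 3 fell and 1 rose (median -0.20), with Dbi at 536 and 313 CPM (-0.77) and Acbd3 at 0.71. Of 8 phospholipid remodelling acyltransferase genes, 3 rose and 1 fell (median 0.29), led by Lpcat2 (0.54) and Lpcat1 (0.42). In SCN no gene of any of these lists was called.

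Markers of other liver cells were read against the same background of 25.3% higher and 21.2% lower. Of 9 macrophage markers 8 were tested, and all 8 rose; their sum ran from 221 to 651 CPM on control and from 323 to 968 CPM on MCD. Of 5 endothelial markers 3 rose, of 6 stellate cell markers 2 rose, which is near that background, and of 8 hepatocyte markers 5 fell. Clec4f and Marco, which define resident macrophages, went from 128 to 146 CPM and from 6.90 to 24.2 CPM. Their part in the changes of the members was not tested.

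The liver profiles most like each member were sought over the 12 group means of diet and time, by the root mean square (RMS) difference of centred log2 values among 13840 genes. For Acsl5 they were Pstpip2 (0.15), Cyb5r3 (0.16) and Aadac (0.16), where the median gene differed by 0.62. For Acsl1 they were Foxa1 (0.17), Dmgdh (0.17) and Gm9727 (0.17), with a median of 0.41. For Acsl3 they were Fkbp14 (0.18), Etl4 (0.18) and Mindy2 (0.19), with a median of 0.46, and for Acsl4 Wsb2 (0.11), Ndor1 (0.11) and Cltc (0.11), with a median of 0.29. The points share their libraries. In SCN the group means of each member spanned less than 0.5 log2, and no profiles are named.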

How the data were processed

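RNA-seq counts of 36 liver and 36 SCN libraries were used. The authors deposited whole-number counts per gene, in 1 table per tissue, and counts per exon bin, in 1 file per library; neither is normalized. Trimmomatic, HISAT2, StringTie and DESeq2 and the build GRCm39 are named, without roles, in the submitters' processing notes, with the counter, annotation release and strand setting not given in the sources used here. The protocol text names male mice only, and the sex in the sample labels was followed. Where nothing says that libraries came from separate animals, p-values measure the spread between libraries, which may be technical. Every pair of libraries within a group differed by more than sampling noise (chi-square per degree of freedom at least 24.1).

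Genes were tested with edgeR 4.0.16 in R 4.3.3 (TMM, a count minimum of 10, robust quasi-likelihood), in 1 model per tissue with 12 diet-by-time groups and sex. This left 20249 liver and 15759 SCN genes. Calls have an adjusted p under 0.05. The ± of a CPM value or share is an SD and that of a log2 difference an SE. Rhythm was a 24 h cosine-sine pair over the time means of a diet. Exon usage was tested with diffSpliceDGE. In 2 liver files, control CT00 1 and 2, the lines end early, and the exon test left them out. Positions printed are those of the GENCODE M21 gene models on GRCm38, matched by gene ID and not converted to GRCm39, and the number of bins matched for 4 members but not for Acsl3 (24 in the files, 26 in the model). Members, lists and tests were chosen with earlier results of these data known. Named genes are the 5 members, the 2 called genes of each list with the largest effect and a mean of at least 1 CPM, and the 3 nearest profiles. Zdhhc6, Utp14b, Gm12224, mt-Nd6, Clec4f and Marco are named outside that rule, and were chosen after values were seen. On simulated counts, all of 100 liver genes changed by 1 log2 were recovered and 80% of those changed by 0.5, with 12 false calls among 20049. Alternatives were other scalings (library totals, DESeq2 1.42.0 size factors), no filter, DESeq2, limma-voom (limma 3.58.1), a replicate block, the kind of library, males alone and leaving out libraries or replicate numbers. In gene fits without a replicate number, control CT08 a and b stayed in, since they carry none. The exon fits left out every library of that number.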

Additional observations from a re-analysis of the deposited data

Results flagged for a closer look

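These results were picked out because an effect differed between groups by a test of the difference itself. The diet effect on liver Acsl5 differed between the sexes by -0.44 log2 (females minus males, adjusted p = 0.0372, edgeR), a call lost in 21 of 36 fits without 1 library (adjusted p up to 0.102). Sex and replicate number cannot be told apart there, since every female is replicate 3. The diet effect was higher in SCN than in liver by 1.16 log2 for Acsl5, 0.45 for Acsl3 and 0.42 for Acsl1. The 24 h component of Acsl3 on control differed between the tissues, with a range of the difference of 1.49 log2, in a test added after the peaks were seen.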

How the results depend on the processing

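The 38 results were recomputed under alternatives that gave 852 values: 755 kept their side of the threshold, 90 lost the call, 7 gained it and 0 called values changed sign. The 755 include 22 of 230 SCN diet values that changed sign; none of the 230 was called. The diet effect on liver Acsl5 was called in all of them (-1.17 to -0.85 log2). With library totals alone, the calls of Acsl3 (-0.18), Acsl1 (-0.17) and of the tissue difference in the diet effect of Acsl1 (0.27) were lost, while the tissue difference of Acsl4 (-0.39, also -0.26 without liver control CT08 a) and the rhythm difference of Acsl5 (0.66) passed. Within the low kind of library, Acsl3 (-0.20), Acsl1 (-0.32) and Acsl4 (0.20) lost the diet call, as did Acsl3 (-0.35) within the high kind, Acsl1 in males only (-0.50) and Acsl4 with DESeq2 size factors (0.19). The cause was not tested, though the fits within a kind or sex hold fewer samples. With the replicate block in place of sex, Acsl4 (0.15), the rhythm of Acsl5 (0.46) and that of Acsl3 (0.73) lost the call in liver, and no other call changed. These gene fits also left out control CT08 a and b, which carry no number, so that only the female stood for control at CT8. The block was not tested apart from their loss. Not all pairs of one number passed the rule used for pairing, r over 0.1 (13 of 16 in liver, with r 0.07 to 0.43, and 8 of 16 in SCN). Yet 15 of 15 MCD liver libraries resembled the control of their own number most (9 of 15 in SCN). Number 3 is the female, and what else libraries of one number share is not given in the labels. A shared block is therefore not excluded. Leaving out single libraries or replicate numbers gave ranges of -0.50 to -0.35 for the diet effect on liver Acsl1, 0.13 to 0.31 for Acsl4, 0.52 to 0.69 for the control rhythm of Acsl5, 0.90 to 1.36 for that of Acsl3, 0.34 to 0.39 for the MCD rhythm of Acsl3 in SCN, 0.59 to 0.82 for the rhythm difference of Acsl5, -0.14 to -0.12 for the sex difference of Acsl3 in SCN, -0.47 to -0.39 for the sex difference in the diet effect on Acsl5, 0.31 to 0.55 for the tissue difference in the diet effect of Acsl1 and 1.27 to 1.82 for that in the rhythm of Acsl3. Depth limits Acsl6 in liver and the start bins.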

Other observations

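Values by sex for liver Acsl4, in part given above, and for liver Acsl1 were as follows. Liver Acsl4 averaged 89.9 ± 14.6 CPM in MCD males (n = 12) and 70.7 ± 9.96 CPM in MCD females (n = 6), against 71.99 ± 15.1 CPM in control males and 73.1 ± 9.66 CPM in control females, and the sex-by-diet test did not call it (adjusted p = 0.333, edgeR). Liver Acsl1 averaged 1101 ± 347 CPM in control males and 761 ± 61.9 CPM in control females, and 764 ± 241 and 642 ± 192 CPM on MCD. The share of the inner start among the start bins of Acsl1 varied between liver libraries of the same diet, from 0.167% to 8.07% on control (median 2.42%) and from 0.204% to 12.6% on MCD (median 4.23%).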
